A study of Mus musculus with 8 samples.

Results

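The genes described here encode proteins that detect viral or misplaced self nucleic acid inside the cell, together with the proteins that pass the signal on or remove the ligand. They were taken as a list of 10 gene symbols, drawn up with earlier results of these data known, and 9 of the 10 were in the table of 18768 genes. All 9 passed the filter on low counts and were tested among 15153 genes. The nuclease gene Trex1, which lies at chr9:109057933-109059734 within the span of Atrip on the same strand in the GENCODE annotation of mm10, was not analysed here.

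RNA had been sequenced from 4 tumor cell lines, with 2 libraries per line and 74063616 to 116206078 counts per library. Each line was grown from 1 fibrosarcoma that the carcinogen methylcholanthrene had induced under the skin of a mouse, and was cultured for many passages before RNA was taken. MC010 and MC011 came from IRF8 knock-out mice (label IRF8 KO), whereas WT mice gave MC654 and MC659 (label WT). The labels give no treatment of the cultured lines. The WT strain was C57BL/6, and the age of the mice is not given in the sources used here. The question was how a label, and each line under it, differed in the RNA of the sensors. Because a line is 1 tumor, 4 libraries against 4 are only 2 lines against 2, and p-values measure the spread between libraries. The study assigned the genotypes by PCR on genomic DNA of the lines. RNA counted for the targeted gene ran against the labels. Irf8 reached 3.86 and 4.72 CPM (counts relative to the scaled size of the library) in MC010 and 0.332 and 0.127 CPM in MC011, while the libraries labelled WT held at most 2 counts each. A gene count does not tell RNA of a targeted allele from RNA of an intact one, and directions are given by label. In a bulk sample, fewer cells that express a gene and less RNA per cell cannot be told apart.

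In the cytosol, RIG-I (gene Ddx58) and MDA5 (Ifih1) are helicases that bind viral RNA, RIG-I mainly short RNA with a triphosphate end and MDA5 long duplex RNA. LGP2 (Dhx58) is the related helicase without the signalling domains, and it tunes both. RIG-I and MDA5 act through MAVS, an adaptor on mitochondria. TLR3 binds duplex RNA in endosomes. cGAS (Mb21d1) binds cytosolic DNA and makes cyclic GMP-AMP, which activates STING (Tmem173) on the endoplasmic reticulum. ZBP1 binds Z-form nucleic acid and can start necroptosis. The branches through MAVS, TLR3 and STING share the kinase TBK1, which activates IRF3 and so leads to type I interferon. Several sensors are themselves interferon-induced genes, and in tumor cells these routes affect how a tumor is seen by T cells.

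Promoter sequence is shown for the RNA sensors Ddx58 and Ifih1 and for cGAS, whose RNA differed in other ways between the lines, as 150 bases directly before the RefSeq start. In the RefSeq promoter set used here (build GRCm38.p6), 6 of the 9 measured genes were matched. They were Ddx58, Ifih1, Mavs, Mb21d1 (listed as Cgas), Tlr3 and Tbk1. Dhx58, Tmem173 and Zbp1, all among the genes called lower below, were not matched in that set, so their promoters were not searched. The windows lie at chr4:40239826-40239975, chr2:62646256-62646405 and chr9:78443238-78443387, all on the minus strand. Capitals mark the core that IRF proteins bind, AANNGAAA, searched on both strands over 250 bases.
Ddx58: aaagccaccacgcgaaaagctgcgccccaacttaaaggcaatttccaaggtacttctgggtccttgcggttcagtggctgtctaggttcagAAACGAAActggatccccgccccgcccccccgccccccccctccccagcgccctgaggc
Ifih1: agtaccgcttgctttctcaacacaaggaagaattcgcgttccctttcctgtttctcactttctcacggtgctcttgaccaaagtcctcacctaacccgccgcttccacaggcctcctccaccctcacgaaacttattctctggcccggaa
Mb21d1: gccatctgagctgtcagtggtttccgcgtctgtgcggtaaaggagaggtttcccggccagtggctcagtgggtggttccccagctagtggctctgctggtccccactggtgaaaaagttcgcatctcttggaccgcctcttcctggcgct
The core occurred in 2 of these 6 promoters, those of Ddx58 and Tlr3, with its first base 59 bases before the RefSeq start in both and on opposite strands. For Tlr3 that start lies 700 bases inside the span of the gene in the table, so its window is within longer annotated transcripts and is not shown. Of all 32851 promoters of that length, 21.3% held it. The longer response element, GAAA repeated after any 2 bases, contains the core. Searched in the same way, it was in none of the 6 and in 2.98% of all promoters. These matches describe letters in a window and do not show binding.

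Across the labels, the RNA sensors of the cytosol, STING and ZBP1 were lower in the IRF8 KO lines, and Mavs, Tbk1, Tlr3 and Mb21d1 were not called. A gene was called where the adjusted p was under 0.05 and the log2 difference exceeded 0.59 either way. Of the 9 genes, 5 were called lower, Ddx58, Ifih1, Dhx58, Tmem173 and Zbp1, against 8.72% of all genes tested, and 0 were called higher, against 13.7%. The count of 0 was the same with DESeq2 (15.3% of all genes), and every member with an unadjusted p under 0.05 was among the 5 lower genes. The median log2 fold change was -0.98 over the 9 genes and 0.02 over all genes. For the same 5 genes, all 4 libraries labelled IRF8 KO lay below all 4 labelled WT, which held for 20.5% of all genes. An exact two-sided permutation test over libraries gave p = 0.0286 for each of the 5, the smallest that 4 against 4 allow, and by line 2 against 2 cannot go below 0.333. When the counts of each line were added together, edgeR called 0 of all 16927 genes in either direction, the 9 included, with 3658 genes and 5 of the 9 at an unadjusted p under 0.05. The log2 differences there were -2.13 for Ddx58, -3.16 for Ifih1, -1.88 for Dhx58, -0.98 for Tmem173 and -3.14 for Zbp1, with adjusted p-values from 0.0810 to 0.228. In limma-voom with a random term for line, 5 were called lower and 0 higher, against 5.54% and 6.84% of all genes.

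**Figure D1:**
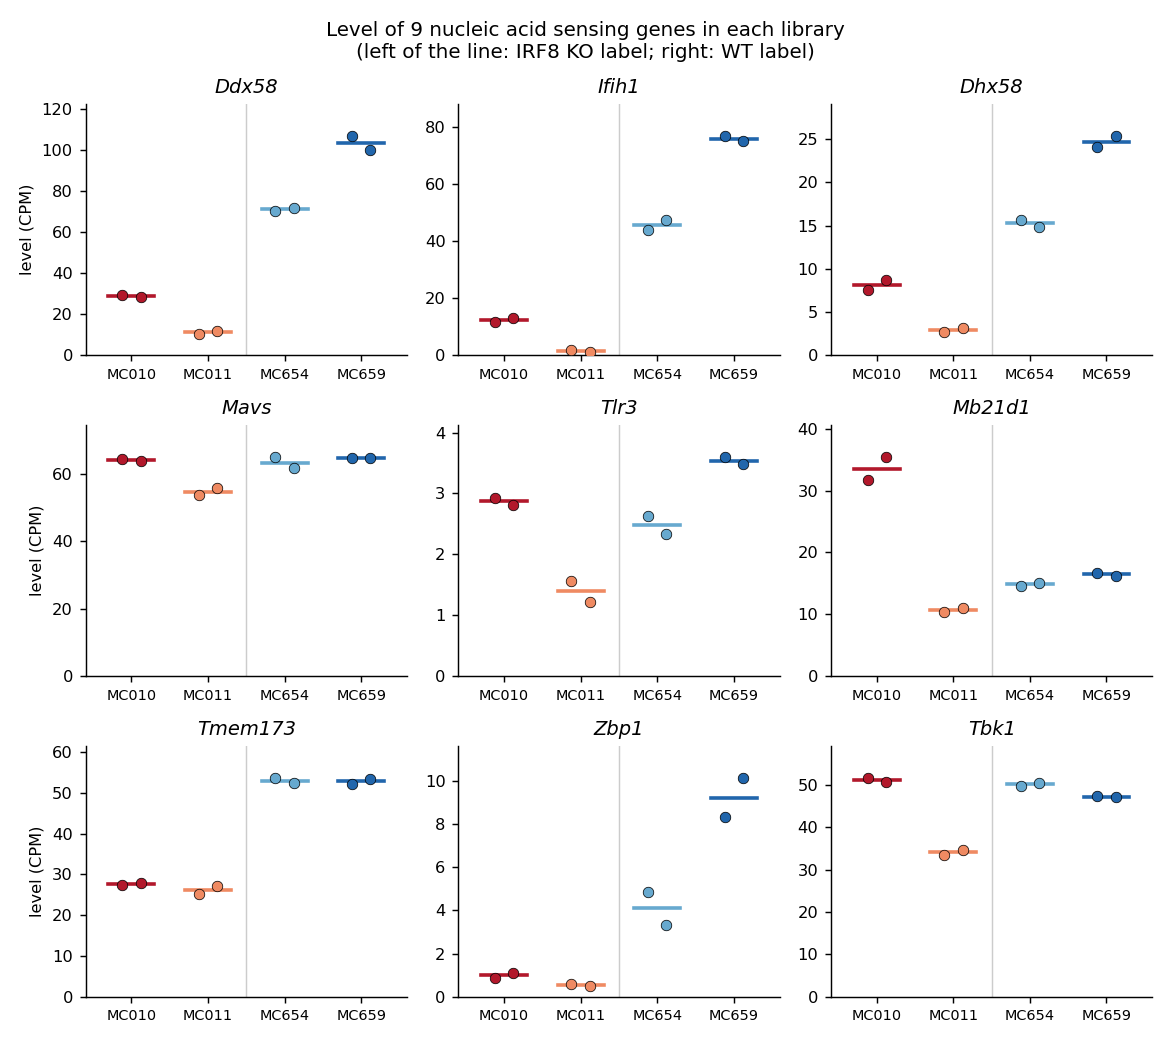
Level in CPM (vertical axis, from 0, a separate scale for each gene) of the 9 genes in each of the 8 libraries, by line. Points are libraries and bars are the mean of the 2 libraries of a line. For Ddx58, Ifih1, Dhx58, Tmem173 and Zbp1 every point left of the grey line is below every point right of it, and Mb21d1 is highest in MC010, at 31.8 and 35.4 CPM.

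Ddx58 (ENSMUSG00000040296, chr4:40203773-40239828) had 29.3 and 28.1 CPM in MC010, 10.3 and 11.9 CPM in MC011, while MC654 libraries held 70.5 and 71.8 CPM and MC659 libraries 107 and 100.0 CPM. The label means were 19.9 ± 10.2 CPM (SD, n = 4 libraries of 2 lines) for IRF8 KO and 87.3 ± 18.8 CPM (SD, n = 4) for WT, so RIG-I RNA was 4.39-fold higher in WT. The edgeR difference was -2.13 ± 0.38 (SE) on the log2 scale, at an adjusted p of 0.00339. Without MC659 it was -1.85 with an adjusted p of 0.0531. The 4 lines stood in the order MC659, MC654, MC010, MC011, and each neighbour in that order differed (adjusted p of 2.52e-05, 7.30e-11 and 1.44e-10 in edgeR by line), though the step between the WT lines, 0.54 on the log2 scale, was short of the fold threshold.

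Ifih1 (ENSMUSG00000026896, chr2:62595798-62646255) covered the widest fold range of the 9 genes over the lines. It had 11.5 and 13.1 CPM in MC010 and 43.8 and 47.5 CPM in MC654, with 76.7 and 75.1 CPM in MC659. In MC011 it was down to 1.76 and 1.03 CPM, from 170 and 81 counts, still well above the floor of 3 counts. MDA5 RNA was thus lower in both IRF8 KO lines than in either WT line, and lowest in MC011. The label means were 6.84 ± 6.33 CPM (SD, n = 4) and 60.8 ± 17.6 CPM (SD, n = 4), or -3.15 ± 0.80 (SE) on the log2 scale in edgeR, at an adjusted p of 0.0165. Its call ended with either WT line left out, at -3.48 on the log2 scale (adjusted p of 0.0731) without MC654 and -2.75 (adjusted p of 0.129) without MC659. Between single lines the log2 difference ran from -1.90 for MC010 against MC654 to -5.74 for MC011 against MC659, a 53.3-fold lower level. The order of lines was that of Ddx58, and all 3 steps passed both thresholds.

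Dhx58 (ENSMUSG00000017830, chr11:100694884-100704271) followed the same order of lines. The libraries of MC010 had 7.48 and 8.72 CPM, those of MC011 2.61 and 3.08 CPM, those of MC654 15.6 and 14.9 CPM, and those of MC659 24.1 and 25.3 CPM. The label means were 5.47 ± 3.08 CPM (SD, n = 4) and 19.97 ± 5.49 CPM (SD, n = 4), so LGP2 RNA was 3.65-fold higher in WT. Its edgeR difference was -1.87 ± 0.43 (SE) on the log2 scale, at an adjusted p of 0.0107, and without MC659 it was -1.49 with an adjusted p of 0.119. The antisense gene Dhx58os, which overlaps it on the other strand, reached at most 0.254 CPM. Mb21d1 and Tlr3 also have overlapping genes on the other strand, Gm8093 and Gm45542, which were not analysed here. Across the 8 libraries the log2 CPM of the 3 helicases rose and fell together, with a Pearson's r of 0.98 for Ddx58 with Ifih1, 0.99 for Ddx58 with Dhx58 and 0.98 for Ifih1 with Dhx58. Other pairs were also close, with 0.96 for Ddx58 with Zbp1, 0.93 for Ddx58 with Tmem173 and 0.87 for Ifih1 with Mavs. These r values describe 8 libraries of 4 lines that share scaling.

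Mavs (ENSMUSG00000037523, chr2:131234063-131248025), the adaptor that both signalling helicases need, was not called between the labels. It had 64.3 and 63.8 CPM in MC010, 53.7 and 55.7 CPM in MC011, while MC654 libraries held 64.9 and 61.8 CPM and MC659 libraries 64.8 and 64.7 CPM. The labels overlapped, and edgeR gave -0.11 ± 0.07 (SE) on the log2 scale, at an adjusted p of 0.272. MC011 was the lowest line, by 0.21 on the log2 scale below MC654 (adjusted p = 0.00215, edgeR by line), short of the fold threshold. The lines above it in order were not told apart (adjusted p of 0.792 and 0.798).

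Tlr3 (ENSMUSG00000031639, chr8:45395665-45411080), the endosomal RNA sensor, was scarce in every line. It had 2.93 and 2.82 CPM in MC010, 1.57 and 1.22 CPM in MC011, while MC654 libraries held 2.62 and 2.33 CPM and MC659 libraries 3.59 and 3.48 CPM, from 96 to 335 counts per library. The labels overlapped, and edgeR gave -0.50 ± 0.32 (SE) on the log2 scale, at an adjusted p of 0.267. Only MC011 stood apart, at 0.82 on the log2 scale below MC654, the next line (adjusted p = 0.000960, edgeR by line). With MC010 left out the label difference was -1.13 with an adjusted p of 0.00234.

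Mb21d1 (ENSMUSG00000032344, chr9:78430526-78443237), the gene of cGAS, split the IRF8 KO lines. It had 31.8 and 35.4 CPM in MC010 and 10.4 and 11.01 CPM in MC011, on either side of the WT lines, where MC654 libraries held 14.5 and 15.1 CPM and MC659 libraries 16.7 and 16.3 CPM. The label difference of 0.50 on the log2 scale (SE 0.41, edgeR adjusted p of 0.374) is a mean of opposite differences. MC010 was higher than MC654 by 1.18 (adjusted p = 1.51e-09) and than MC659 by 1.02 (adjusted p = 7.23e-09) on that scale. MC011 against MC654 gave -0.47 (adjusted p = 9.71e-05), short of the fold threshold, and against MC659 -0.63 (adjusted p = 4.69e-06), all in edgeR by line. With MC011 left out Mb21d1 was called higher in IRF8 KO (log2 fold change 1.09, adjusted p = 2.35e-06), and with MC010 left out its direction reversed (-0.57, adjusted p = 0.000460).

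Tmem173 (ENSMUSG00000024349, chr18:35733678-35740554), the gene of STING, gave the most even difference between the labels. It had 27.4 and 27.8 CPM in MC010 and 25.1 and 27.0 CPM in MC011, while MC654 libraries held 53.5 and 52.3 CPM and MC659 libraries 52.2 and 53.4 CPM. The label means were 26.8 ± 1.21 CPM (SD, n = 4) and 52.8 ± 0.710 CPM (SD, n = 4), so STING RNA was 1.97-fold higher in WT. The edgeR difference was -0.98 ± 0.06 (SE) on the log2 scale, at an adjusted p of 1.42e-05, and the call was kept with each library and each line left out. Within a label the lines were not told apart, at 0.08 on the log2 scale for MC010 against MC011 (adjusted p = 0.231) and 0.0039 for MC654 against MC659 (adjusted p = 0.978), both in edgeR by line. In MC010 lower STING RNA than in WT thus stood beside higher cGAS RNA, and in MC011 beside lower cGAS RNA.

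Zbp1 (ENSMUSG00000027514, chr2:173206612-173218923), the Z-form nucleic acid sensor, was low throughout and lowest in the IRF8 KO lines. It had 0.874 and 1.10 CPM in MC010 and 0.591 and 0.494 CPM in MC011, from 39 to 100 counts. Of the WT lines, MC654 had 4.85 and 3.34 CPM, and MC659 had 8.34 and 10.1 CPM. The label means were 0.765 ± 0.277 CPM (SD, n = 4) and 6.67 ± 3.12 CPM (SD, n = 4), so the level was 8.71-fold higher in WT. The edgeR difference was -3.12 ± 0.43 (SE) on the log2 scale, at an adjusted p of 0.00103, and the call was kept with each line left out. The order of lines was that of the helicases, with MC659 above MC654 by 1.17 and MC010 above MC011 by 0.83 on the log2 scale (adjusted p of 0.000307 and 0.0117 in edgeR by line). The step between the IRF8 KO lines was not called with library 2 of MC010 left out (adjusted p = 0.0578) or with library 2 of MC011 left out (adjusted p = 0.0745).

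Tbk1 (ENSMUSG00000020115, chr10:121546455-121586787), the kinase on which the branches meet, had 51.5 and 50.7 CPM in MC010, 33.5 and 34.7 CPM in MC011, while MC654 libraries held 49.8 and 50.4 CPM and MC659 libraries 47.3 and 47.0 CPM. Both libraries of MC010 lay above all 4 of WT, and both of MC011 below them. The edgeR difference between labels was -0.19 ± 0.15 (SE) on the log2 scale, at an adjusted p of 0.365, and it was 0.06 with MC011 left out, the opposite direction. Between the IRF8 KO lines MC010 was higher by 0.58 on the log2 scale (adjusted p = 1.31e-07, edgeR by line), just short of the fold threshold, and it passed with library 2 of MC010 left out (0.62), with library 2 of MC011 left out (0.61) and with scaling by upper quartile (0.59). MC011 was below MC659, the nearest line, by 0.47 on the log2 scale (adjusted p = 1.71e-06, edgeR by line), short of the fold threshold.

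**Figure D2:**
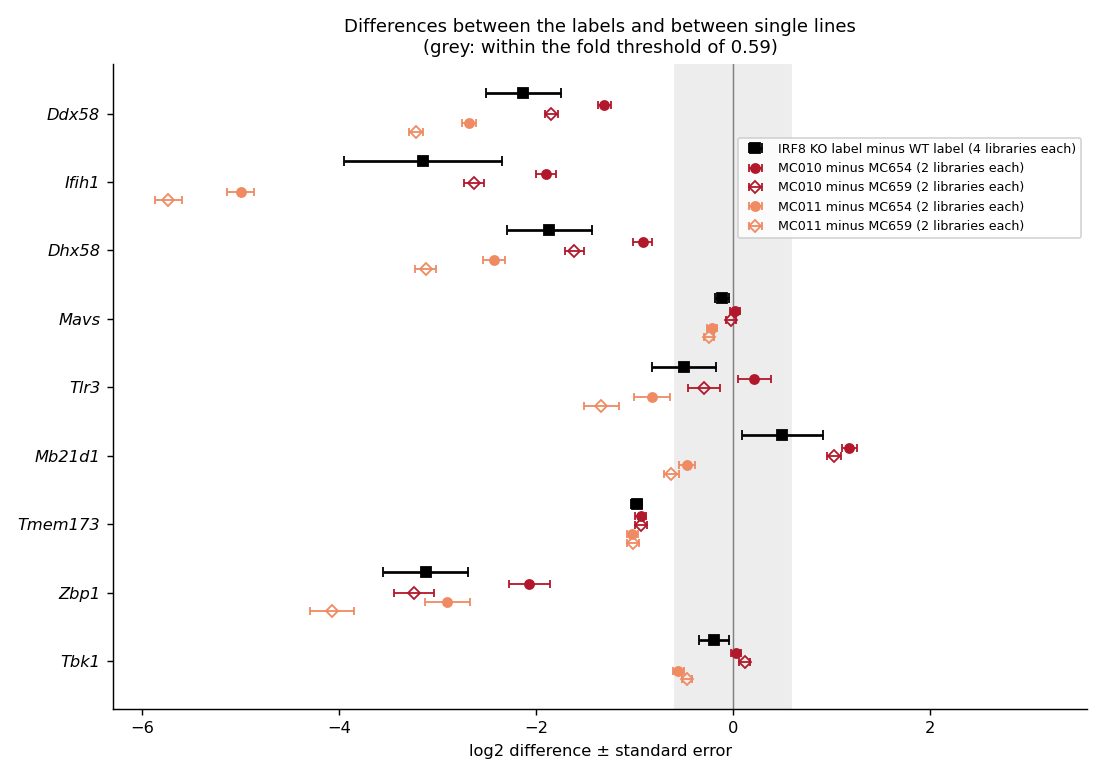
Log2 difference ± standard error (horizontal axis) of each gene between the labels (black squares) and between single lines (red for MC010, orange for MC011, filled circles against MC654 and open diamonds against MC659). The points of Tmem173 lie together between -0.93 and -1.02, those of Ifih1 spread from -1.90 to -5.74, and those of Mb21d1 fall on both sides of 0.

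The lines of 1 label also differed from each other, and toward 1 side. MC010 exceeded MC011 in 6 of the 9 genes past both thresholds, Ifih1 (3.10 on the log2 scale), Mb21d1 (1.65), Dhx58 (1.51), Ddx58 (1.38), Tlr3 (1.04) and Zbp1 (0.83), against 15.7% of all genes tested. None was called lower in MC010, against 16% of all genes, and the median over the 9 genes was 1.04 and over all genes 0.00090. MC654 was below MC659 in 3 of the 9, Zbp1 (-1.17), Ifih1 (-0.73) and Dhx58 (-0.70), against 3.71% of all genes, with a median of -0.51 over the 9 genes. Each line labelled IRF8 KO was also set against each WT line, in comparisons that share libraries. MC010 had 5 genes called lower against MC654 (16.3% of all genes) and 5 against MC659 (17.7%), and in both 1 higher, Mb21d1 (19.6% and 19.1%). MC011 had 6 genes called lower against MC654 (12.4%) and 7 against MC659 (13.7%), and 0 called higher in either (17.2% and 16.6%).

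Set per length, as CPM per kb of annotated exon, Mavs, Tmem173 and Tbk1 were among the most abundant RNAs and TLR3 and ZBP1 among the scarcest. In the WT lines the mean level was 19.3 CPM per kb for Tmem173, 19.1 for Mavs, 12.4 for both Tbk1 and Ddx58, 7.44 for Ifih1, 6.10 for Dhx58, 3.80 for Mb21d1, 1.89 for Zbp1 and 0.577 for Tlr3. In the IRF8 KO lines Mavs was at 17.7 CPM per kb, Ddx58 at 2.82, Dhx58 at 1.67 and Ifih1 at 0.837. The helicases were thus lower relative to their adaptor. The ratio of Ddx58 to Ifih1 per kb was 1.81 in MC654 and 1.58 in MC659, 2.71 in MC010 and 9.20 in MC011, so MDA5 RNA was lower than RIG-I RNA in all 4 lines and by most in MC011. The ratio of Ddx58 to Dhx58 per kb stayed between 1.64 and 2.17 over the 4 lines. The ratio of Tmem173 to Mb21d1 per kb was 5.38 in MC654, 4.81 in MC659, 3.67 in MC011 and 1.24 in MC010. These ratios were not tested. Exon lengths pool all annotated transcripts of a gene, so the order of genes per length also depends on the transcripts expressed.

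**Figure D3:**
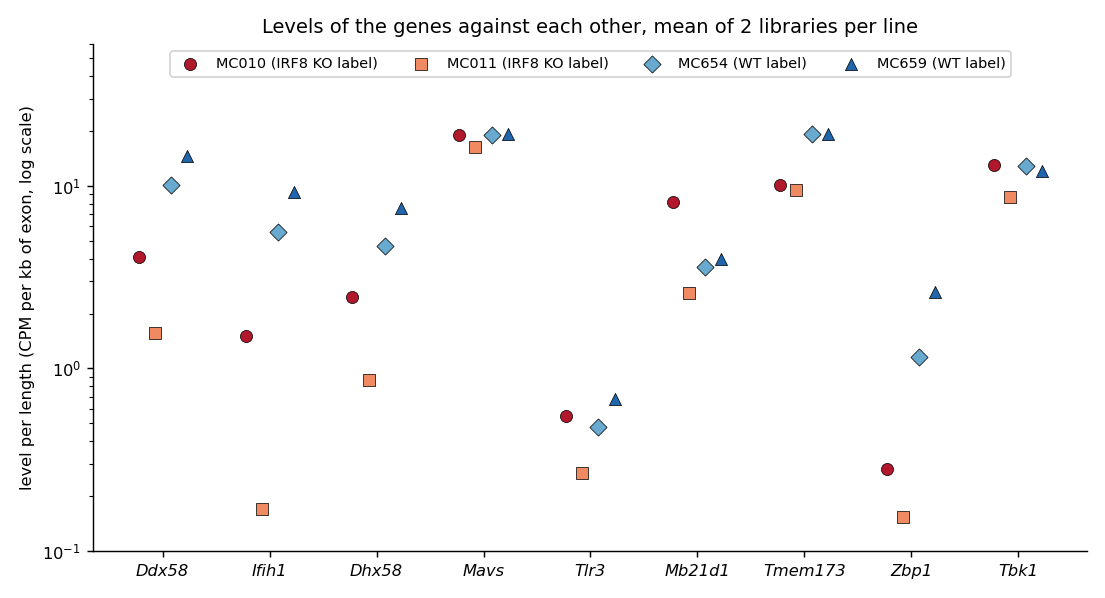
Level of each gene in CPM per kb of exon (vertical axis, log scale), as the mean of the 2 libraries of each line (symbols by line). Mavs, Tmem173 and Tbk1 lie between 8.72 and 19.4 CPM per kb in every line, and Ifih1 falls to 0.171 CPM per kb in MC011.

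The surrounding pathway was followed with 7 lists of 100 genes, of which 91 were measured and tested. Of these, 18 were called lower in IRF8 KO, against 8.72% of all genes, and 6 higher, against 13.7%. The median log2 fold change over the 91 genes was -0.09. Among 18 other sensors, 2 were lower, Ddx60 (log2 fold change -3.37), a helicase that supports RIG-I signalling, and Ifi203 (-3.28), a member of the HIN-200 family of DNA-binding proteins. Nlrc3 (1.06), a restraint on STING signalling, was higher. The 2 lower of 18 were close to the share of all genes called lower, and the 1 higher was below the share called higher. Ifi204 (-0.64, adjusted p = 0.0613 from edgeR) and Eif2ak2, the gene of the RNA-activated kinase PKR (-0.72, adjusted p = 0.0604), passed only the fold threshold. At an adjusted p under 0.05 but short of the fold threshold, Dhx36 (-0.37), Lrrfip1 (-0.33) and Polr3b (-0.29) had lower values. Ddx41 (0.37), Xrcc6 (0.33) and Dhx9 (0.23) had higher values on the same terms.

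Among 18 adaptors, kinases and transcription factors downstream of the sensors, 3 IRF genes and 1 NF-kB gene were called. Of all genes, 8.72% were called lower and 13.7% higher. Irf7 (-3.87), Irf5 (-2.94) and Irf3 (-0.76), which turn the signal into interferon transcription, were lower, and Rela (0.89), a subunit of NF-kB, was higher. The other 14, among them Ticam1 (0.47), the adaptor of TLR3, Traf3 (0.53) and Ikbke (0.33), the kinase related to TBK1, did not pass both thresholds. Of 13 regulators of the RIG-I-like receptors, 1 was called, Trim25 (-0.93), a ubiquitin ligase that supports RIG-I, and 12 were not. Of 12 genes for trafficking of endosomal receptors and STING, Cnpy3 (0.67), a chaperone for Toll-like receptors, was higher and Stim1 (-0.72), a calcium sensor that holds STING back, was lower. The calls in the lists of 13 and 12 genes did not exceed the shares of all genes.

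Of 15 nucleases, editors of self nucleic acid and related genes, 3 were lower and none higher, against the same shares of all genes. They were Enpp1 (-2.33), which degrades cyclic GMP-AMP outside the cell, Adar (-0.64), which edits duplex RNA, and Rnaset2b (-0.93), a lysosomal ribonuclease with a near-identical copy, Rnaset2a, so that its counts are uncertain. Of the 4 partners of ZBP1 in cell death, Casp6 (0.84) was higher, and Ripk3 (1.20, adjusted p = 0.144 from edgeR) and Mlkl (0.25, adjusted p = 0.595) were not called. Ripk3 had 15.8 CPM in MC010, 6.13 CPM in MC011, 2.00 CPM in MC654 and 7.52 CPM in MC659, so its lines overlapped between labels.

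Among 11 genes that the pathway induces, 8 were lower and 2 higher, against 8.72% and 13.7% of all genes. The median log2 fold change was -2.97. Lower were Rsad2 (-4.40), Ifit3 (-4.05), Ifit1 (-3.78) and Ccl5 (-3.08), all antiviral or chemokine genes, with Isg15, Ifit2, Cxcl10 and Mx1. Higher were Nfkbia (1.90) and Tnfaip3 (1.30), NF-kB targets that limit NF-kB. Il6 (2.50, adjusted p = 0.0606 from edgeR) was not called, at 0.0546 CPM in WT. The interferon genes of the list, Ifnb1, Ifna1, Ifna2 and Ifna4, were not analysed here, nor was Tnf. With MC011 left out, 15 of the 91 genes were higher in place of 6, where the share of all genes was 19.7%.

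**Figure D4:**
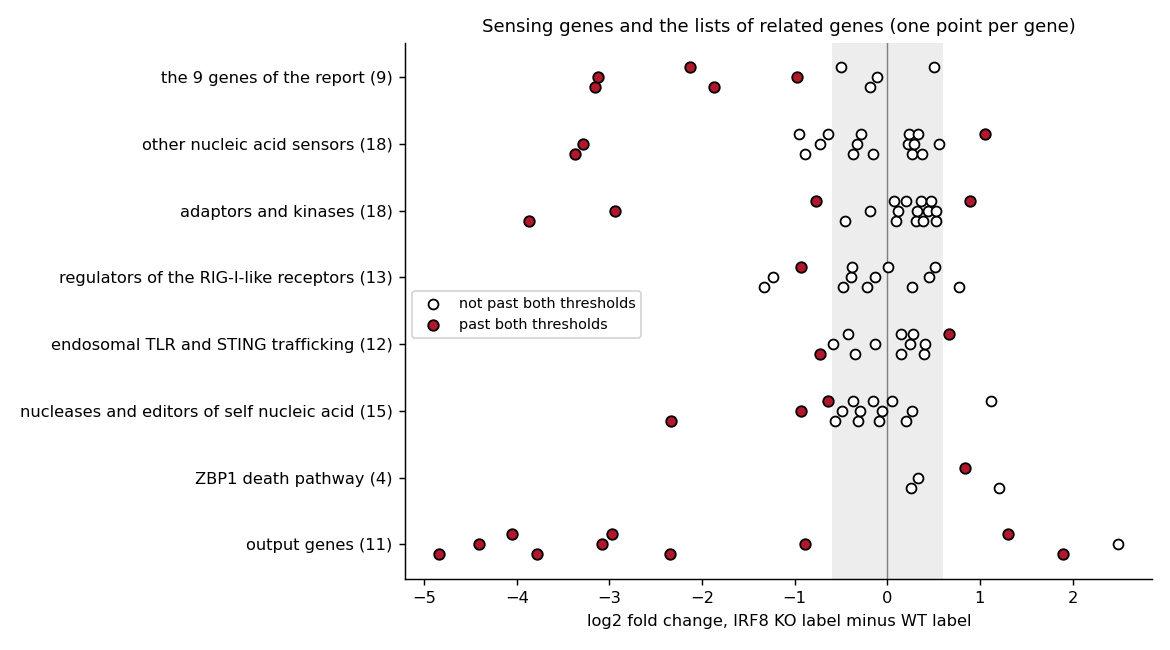
Log2 fold change between the labels (horizontal axis, IRF8 KO label minus WT label) of the 9 genes and of the genes of the 7 related lists (rows, with the number tested). Filled points passed both thresholds and open points did not, and the grey band is the fold threshold of 0.59. Filled points lie to the left in the top row, where 5 of 9 are filled, and in the row of induced genes, where 8 of 11 are filled on that side.

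The lines, classed as fibrosarcoma in the study, carried RNA of mesenchymal markers, with Vim at 4745 CPM in WT and 6221 CPM in IRF8 KO. All 10 mesenchymal markers were measured, as were all 6 epithelial and endothelial ones. Of the 10, Fap was scarce, at 0.732 CPM in MC011 and 0.867 CPM in MC654. Those 10 summed to 9748 to 10525 CPM in the libraries labelled IRF8 KO and 14422 to 16165 CPM in those labelled WT. That difference rested on Fn1, the gene of fibronectin (log2 fold change -2.33), and the other 9 summed to 8024 to 9361 CPM and 6643 to 8068 CPM. Of the 10, 3 were called higher in IRF8 KO, Pdgfra (3.82), S100a4 (2.17) and Thy1 (1.93), against 13.7% of all genes. Only Fn1 was called lower, against 8.72%. Pdgfra had 71.3 CPM in MC010, 445 CPM in MC011 and a mean of 18.2 CPM in WT. The 6 epithelial and endothelial markers summed to 33.4 to 565.6 CPM and 114.0 to 129.0 CPM. Of the keratin genes, Krt8 had 283.7 CPM in MC010 and 1.29 CPM in MC011, and Krt18 had 264.0 and 31.4 CPM. Of the 6, only Epcam was called, higher in IRF8 KO (log2 fold change 2.20), at 0.668 CPM against 0.144 CPM in WT. Of 12 markers of hematopoietic cells, which use these sensors heavily, 6 were not analysed here. The other 6 summed to 17.1 to 23.6 CPM in the libraries labelled IRF8 KO and 16.5 to 16.7 CPM in those labelled WT. Ptprc, the defining marker, had 0 counts in both libraries of MC011, 18 and 13 in MC010, and at most 2 in each WT library. Csf1r (log2 fold change -1.93) was lower in IRF8 KO like the 5 sensors, at 0.349 CPM against 1.34 CPM in WT, and Cd14 (1.19) was higher. Cd68 had 6.06 CPM in IRF8 KO and 9.10 CPM in WT. Its log2 fold change of -0.58 (adjusted p = 0.00838, edgeR) was short of the fold threshold. The part of any of these cell types in the sensor results was not tested.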

How the data were processed

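RNA sequencing had been performed on 8 libraries. Per the labels, reads were aligned to mm10 with STAR 2.7.3a and counted per gene with HTSeq 0.11.2, versions that differ from those in the methods of the study, and the strand option of counting is not given in the sources used here. The authors deposited the raw count of each gene with at least 20 counts over the libraries, a signal (the count divided by 1 DESeq2 size factor per library), and their own comparison of the genotypes (mean, log2 fold change, error, statistic and p-values), which was not used. All columns of values matched a library by name.

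Counts were analysed in R 4.3.3 with edgeR 4.0.16. Genes passed filterByExpr by label, were scaled by TMM, and were compared by the robust quasi-likelihood test with 1 term for the label, or with one group per line. P-values were adjusted by Benjamini and Hochberg's method over the 15153 genes. Standard errors come from the log2 fold change and the F statistic. Log2 CPM used a prior count of 2. A floor of 3 counts equals 0.0262 to 0.0408 CPM and covers counting error only. The replicate number does not pair the libraries (correlations of deviations from the line means between -0.03 and 0.06). The 2 libraries of a line differed by more than sampling noise (chi-square of 7.69 to 13.3 per degree of freedom). Exon lengths came from GENCODE M21. The fits were tested on simulated data. For the label comparison, the simulated lines of a label shared 1 mean, so that test does not cover the spread between lines.

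The members, the lists and the thresholds were chosen with earlier results of these data known. The related genes named were up to 4 in each direction per list, by size of the fold change, among those called with a mean log2 CPM of at least 0. Genes short of the threshold, Rnaset2b, Isg15, Ifit2, Cxcl10, Mx1 and the cell markers were named after their values were seen. The IRF core motif was searched only after the longer element and a STAT-binding motif had no match in the members' promoters. Alternatives were DESeq2 1.42.0, no filter, scaling by upper quartile, counts summed by line, voom in limma 3.58.1 with a random term for line, the replicate number as a block, each library or line left out, and no fold threshold.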

Additional observations from a re-analysis of the deposited data

Results flagged for a closer look

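The effects of the IRF8 KO lines, each against the same WT lines, differed from each other past both thresholds for 6 of the 9 genes. This is the difference of MC010 minus MC011 given above (edgeR, one group per line). Of all genes tested, 15.7% were called higher in MC010 and 16% lower. The log2 difference was 1.38 for Ddx58, 3.10 for Ifih1, 1.51 for Dhx58, 1.65 for Mb21d1, 1.04 for Tlr3 and 0.83 for Zbp1. For Mb21d1 the effects had opposite signs. One library lay far from the others of its label in 1 of 18 groups of 4 libraries, library 2 of MC654 for Mavs, at 61.8 CPM. Each group pools 2 lines, so the rate by chance is not known, and 1 such group among 18 was not tested further.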

How the results depend on the processing

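Of the 9 genes, 5 stayed lower and 0 higher with DESeq2, without the filter, with scaling by upper quartile, in limma-voom with a random term for line, and without the fold threshold. Of all genes, 10% were lower and 15.3% higher with DESeq2, and 7.54% and 12.6% without the filter. The shares were 9.17% and 13.3% with scaling by upper quartile, and 5.54% and 6.84% in limma-voom. Leaving out single libraries gave 5 to 5 lower and 0 to 0 higher, and 16 to 19 related genes lower and 5 to 9 higher. Over those fits, 6.99% to 9.32% of all genes were lower and 11.7% to 14.4% higher. With counts summed by line, 0 sensors and 0 related genes were lower and 0 related genes higher, as were 0 of all 16927 genes. Without MC659, 2 sensors were lower, Tmem173 and Zbp1 (4.29% of all genes), and without MC654, 4 (5.22%). Without MC011, 1 sensor and 15 related genes were higher (19.7% of all genes). Without the fold threshold, 28 related genes were lower (16.7%) and 18 higher (20.8%). Between lines, the number of sensors called moved by at most 1 when a library was left out, though not always with the same genes: for MC010 against MC011, Zbp1 lost its call and Tbk1 gained one without library 2 of MC010 or of MC011.

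Directions reversed for Mb21d1 without MC010 (-0.57) and Tbk1 without MC011 (0.0633). Between the WT lines, values near 0 changed sign: with single libraries left out, Mavs ranged from -0.0672 to 0.0030 and Tmem173 from -0.0121 to 0.0212, and Tmem173 was at -0.0068 without the filter. The cause was not tested. With the replicate number as a block, which does not pair the libraries, no label call on a sensor changed. There 5 sensors and 17 related genes were lower (7.85% of all genes). Higher were 0 sensors and 7 related genes (12.7%). Counts limit precision most for Zbp1, with 39 to 100 per library in the IRF8 KO lines.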

Other observations

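The genes whose pattern over the 8 libraries was most like the mean log2 CPM of Ddx58, Ifih1 and Dhx58, among non-members with a mean log2 CPM of at least 1, were Rsad2 (Pearson's r = 0.9997), the gene of the antiviral protein viperin, Ddx60 (0.9995) and Thbs1 (0.9994), the gene of the matrix protein thrombospondin-1. Thbs1 had 1078 CPM in MC010, 402 CPM in MC011, 2019 CPM in MC654 and 2832 CPM in MC659. Those most like Zbp1 were Rusc1 (0.995), Vps39 (0.994) and Cox17 (0.992), and Vps39 ranged only from 48.1 CPM in MC011 to 63.4 CPM in MC659. These values describe 8 libraries of 4 lines that share scaling, and were not tested.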
